A study of Homo sapiens with 16 samples.

Results

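The genes that drive human cells from the G1 phase of the cell cycle into S phase were examined in H1299 cells depleted of YEATS2. The group was set by name and comprised 10 of the 12676 genes in the deposited count table: the cyclin genes CCND1, CCND3, CCNE1, CCNE2 and CCNA2, the kinase genes CDK2, CDK4 and CDK6, and the inhibitor genes CDKN1B and CDKN2C. All 10 were present in the table and all 10 passed the filter on low counts. H1299 is an established line from a human non-small cell lung carcinoma and lacks p53. YEATS2 is a histone-reading subunit of the ATAC histone acetyltransferase complex, and the study asked which genes change in expression when it is depleted. RNA-seq was performed on 2 libraries of cells carrying the shNT control vector (titled shCtrl) and 2 libraries of cells carrying shYEATS2 (YEATS2 Knock Down). Both groups received virus made from pLKO vectors with 8 µg/ml polybrene. They entered selection in 2 µg/ml puromycin 48 h later, for 4 to 7 days by the labels. The paper's methods give a shorter span of selection. The labels do not say which YEATS2 shRNA these libraries carried. The paper describes duplicate RNA-seq with an shRNA of efficient knockdown, and separate RNA-seq with an independent shRNA. Libraries of different shRNAs were not compared here, so effects of the shRNA on other transcripts and of YEATS2 loss cannot be told apart. The study describes its duplicates as independent biological replicates. The p-values below weigh the difference between groups against the spread among 2 libraries per group. That spread was estimated for each gene with information from all genes.

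D-type cyclins bind CDK4 and CDK6 in G1, and the complexes phosphorylate the retinoblastoma protein RB and its relatives. This releases E2F transcription factors, which turn on the genes of DNA replication together with the E-type and A-type cyclins, the partners of CDK2. Inhibitors act on these kinases in separate ways. The INK4 proteins, among them p18 (CDKN2C), bind CDK4 and CDK6, whereas the CIP/KIP proteins, among them p27 (CDKN1B), bind and block cyclin E and cyclin A complexes with CDK2. Repressive and activating complexes that contain MuvB proteins recognise a DNA element called CHR in the promoters of many G2 and mitosis genes. Much of the control of these proteins lies in their degradation and phosphorylation, which mRNA counts do not measure.

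The libraries held between 34718921 and 39417787 reads counted over genes. The targeted gene, YEATS2 (chr3:183415585-183530412, hg19), had 4482 and 4104 scaled reads in control cells and 665 and 673 after knockdown (log2 fold change -2.68, SE 0.10, edgeR quasi-likelihood test, FDR = 0.000583). Scaled reads are counts divided by each library's effective size, obtained by TMM (trimmed mean of M values), and brought to a common library size. Of 15 lineage markers looked up, 3 were in the table. KRT8, KRT18 and VIM, which encode keratins and vimentin, were not called (log2 fold changes 0.31, -0.81 and -0.37, FDR = 0.0958, 0.0283 and 0.039), although 1 of the 3 was called lower with exactTest and with DESeq2, and 2 without shYEATS2 replicate 1. The other 12 were not in the table, from which genes with low counts in every library are absent. They were the epithelial genes EPCAM and CDH1, the lung lineage genes NKX2-1, SFTPB and SFTPC, and all 7 markers of leukocytes, endothelium and fibroblasts. In bulk RNA, fewer cells in a phase of the cycle and less of a transcript per cell cannot be told apart, and this holds for every gene below.

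The mRNA of cyclin D1, cyclin E2, cyclin A2, CDK2 and the INK4 inhibitor p18 was lower in the shYEATS2 libraries. That of cyclin D3 and of the CIP/KIP inhibitor p27 was higher. CDK4, CDK6 and cyclin E1 were not called. A gene was called at an FDR below 0.01 in the quasi-likelihood test of edgeR, adjusted by Benjamini-Hochberg over all 12676 genes. Thus 5 of 10 were called lower, against 12.5% of all genes tested, and 2 of 10 were called higher, against 12.9% of all genes. In either direction 7 of 10 were called, against 25.3% of all genes. With either shNT library left out, the 7 called genes kept their direction. Some of them lost their call, and fewer of all genes were called as well. In 6 genes both shYEATS2 libraries lay below both shNT libraries, in 2 both lay above, and in 2 the groups overlapped. Groups without overlap were frequent in this table, at 79.6% of all genes. The median log2 fold change of the 10 genes was -0.65, beside -0.0019 for all genes tested.

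**Figure D1:**
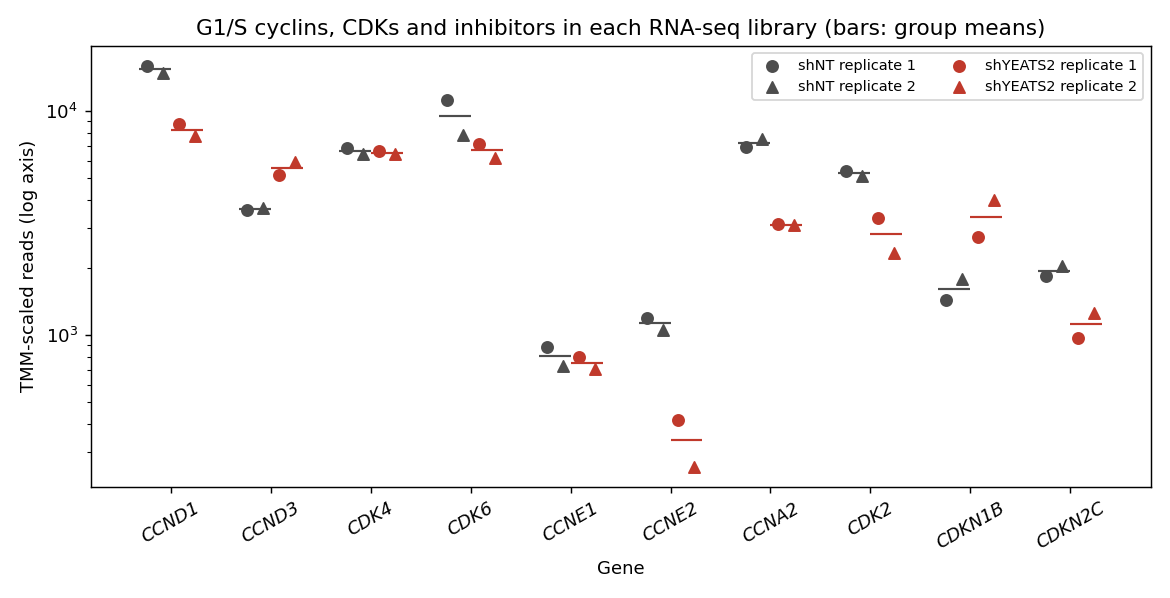
Scaled reads (TMM, log axis) of each of the 10 genes in the 2 shNT libraries (grey) and the 2 shYEATS2 libraries (red), with bars at the group means. CCNE2 shows the widest gap downward, from a mean of 1125 to 338 scaled reads, and CDKN1B the widest gap upward, from 1600 to 3368, while the points of CDK4 and of CCNE1 overlap between groups.

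The promoters of 3 genes are shown because their transcripts moved in different ways: CCNA2 was lower, CDKN1B was higher and CCNE1 did not pass the test. Each window holds the 250 bases before a transcription start as RefSeq gives it, 5′ to 3′ on the gene's own strand (GRCh38.p14). The CCNA2 window lies at chr4:121823884-121824133 on the minus strand, the CDKN1B window at chr12:12717118-12717367 on the plus strand, and the CCNE1 window at chr19:29811741-29811990 on the plus strand. Capitals mark 4 kinds of word on either strand. The CHR element was searched as the words TTTGAA and also CTTGAA. The CCAAT box was searched as its 5 letters and the cyclic AMP response element (CRE) as TGACGTCA. The site of E2F factors was searched as TTTCGCGC, as TTTGGCGC, as TTTCCCGC and as TTTGCCGC.
CCNA2: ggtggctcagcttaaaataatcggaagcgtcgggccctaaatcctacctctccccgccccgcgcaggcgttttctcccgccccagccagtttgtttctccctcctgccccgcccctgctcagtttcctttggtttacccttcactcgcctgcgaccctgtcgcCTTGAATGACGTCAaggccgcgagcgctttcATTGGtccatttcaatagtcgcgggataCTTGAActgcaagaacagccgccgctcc
CDKN1B: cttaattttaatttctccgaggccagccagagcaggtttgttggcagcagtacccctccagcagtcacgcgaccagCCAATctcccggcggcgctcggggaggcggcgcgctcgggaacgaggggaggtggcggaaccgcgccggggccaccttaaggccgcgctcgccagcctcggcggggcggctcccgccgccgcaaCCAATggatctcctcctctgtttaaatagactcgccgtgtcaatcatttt
CCNE1: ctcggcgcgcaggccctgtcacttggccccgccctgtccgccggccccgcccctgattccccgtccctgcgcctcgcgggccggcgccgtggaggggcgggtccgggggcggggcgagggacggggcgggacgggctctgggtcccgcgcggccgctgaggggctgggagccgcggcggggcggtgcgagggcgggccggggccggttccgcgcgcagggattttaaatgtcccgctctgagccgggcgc

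The CCNA2 window held 2 CHR words, at positions -87 and -28 from the start, an inverted CCAAT box at -56, and a CRE word at -81 that directly follows the more distant CHR word. The CDKN1B window held CCAAT boxes at positions -174 and -50 and no CHR, CRE or E2F word. The CCNE1 window held none of these 4 kinds of word and 7 GC boxes (GGGCGG on either strand, not capitalised), in a sequence of 81.2% G and C. Windows were found for 7 of the 10 genes, with 12 windows in all since CCND3, CDK6 and CDKN2C have several starts. CCND1, CDK2 and CCNE2 were not matched. Of the 12 windows, a CHR word and a CRE word were each found in 1, that of CCNA2, a CCAAT box in 5, a GC box in 9 and an E2F word in 0. Of all 35116 windows of the same length, 20.9% held a CHR word, 1.65% the CRE word, 32% a CCAAT box, 42.6% a GC box and 2.79% an E2F word. These are matches of letters, and no match says only that the letters are not in the window.

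The D-type cyclins moved in opposite directions. CCND1 (chr11:69455924-69469242, plus strand, hg19), which encodes cyclin D1, the D-type cyclin most often overexpressed in tumours, had 15910 and 14782 scaled reads in shNT and 8715 and 7766 in shYEATS2. Both shYEATS2 libraries lay far below both shNT libraries, and CCND1 fell by 46.3% (log2 fold change -0.90, SE 0.10, FDR = 0.00152). Its neighbour LTO1, listed as ORAOV1, shares 10.4% of the CCND1 exon bases on the other strand, and was not called (log2 fold change 0.12, FDR = 0.443). CCND3 (chr6:41902672-42018095, minus strand), which encodes cyclin D3, another partner of CDK4 and CDK6, had 3624 and 3704 scaled reads in shNT and 5191 and 5918 in shYEATS2. The shNT libraries differed by little beside the distance to the shYEATS2 libraries, which were both higher, and CCND3 rose by 51.6% (log2 fold change 0.60, SE 0.10, FDR = 0.00457). The call on CCND3 was lost when either shNT library was left out (FDR = 0.028 without shNT replicate 1 and 0.0209 without shNT replicate 2), while its direction was kept.

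The kinases that bind D-type cyclins were not called at this threshold. CDK4 (chr12:58141510-58149796, minus strand) had 6817 and 6424 scaled reads in shNT and 6609 and 6416 in shYEATS2, so the groups overlapped. Its log2 fold change was -0.02 (SE 0.09, 95% interval -0.24 to 0.19, FDR = 0.844). The counts for CDK4 are open to reads of TSPAN31, a tetraspanin gene on the other strand that covers 44.2% of the CDK4 exon bases, because the library kit does not mark strand. TSPAN31 had 395 and 446 scaled reads in shNT and 595 and 751 in shYEATS2 (log2 fold change 0.68, FDR = 0.0123, not called), and its part in the CDK4 counts was not tested. CDK6 (chr7:92234235-92465887, minus strand), the other kinase of this pair, had 11201 and 7856 scaled reads in shNT and 7155 and 6191 in shYEATS2. Both shYEATS2 libraries were the lower ones, but shNT replicate 1 stood well above the other 3 libraries. The log2 fold change of CDK6 was -0.51 (SE 0.17, 95% interval -0.93 to -0.10, unadjusted p = 0.022, FDR = 0.0467). It was -0.24 without shNT replicate 1, and -0.75 with a call (FDR = 0.00819) without shNT replicate 2.

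The E-type cyclins, which share CDK2 as their partner, differed from each other. CCNE1 (chr19:30302898-30315219, plus strand), which encodes cyclin E1, had 882 and 726 scaled reads in shNT and 793 and 705 in shYEATS2. The values of shYEATS2 replicate 1 lay between those of the shNT libraries. Its log2 fold change was -0.10 (SE 0.14, 95% interval -0.43 to 0.22, FDR = 0.558), and its sign turned when shNT replicate 1 was left out (0.04) and when libraries were scaled by total counts (0.02). CCNE2 (chromosome 8, minus strand), which encodes cyclin E2, had 1194 and 1056 scaled reads in shNT and 418 and 258 in shYEATS2. Both shYEATS2 libraries were far lower, with replicate 2 the lowest, and CCNE2 fell by 70.0% (log2 fold change -1.74, SE 0.22, 95% interval -2.26 to -1.21, FDR = 0.00187). Only 0.434% of all genes tested had a lower log2 fold change. INTS8, a subunit gene of the Integrator complex, covers 37% of the CCNE2 exon bases on the other strand and was itself lower, with 4441 and 4486 scaled reads in shNT and 2320 and 1959 in shYEATS2 (log2 fold change -1.06, FDR = 0.00129). The log2 fold change of CCNE2 was more negative than that of INTS8, and the part of INTS8 reads in it was not tested.

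CCNA2 and CDK2, which form a complex that acts during S phase, both fell. CCNA2 (chr4:122737599-122745038, minus strand), which encodes cyclin A2 and whose promoter is printed above with its CHR words, had 6878 and 7527 scaled reads in shNT and 3127 and 3093 in shYEATS2. The shYEATS2 libraries were close to each other and both below the shNT libraries, and CCNA2 fell by 56.8% (log2 fold change -1.21, SE 0.10, FDR = 0.000867). EXOSC9, an RNA exosome gene that shares 9.24% of the CCNA2 exon bases on the other strand, was also lower (log2 fold change -0.98, FDR = 0.00284). CDK2 (chr12:56360565-56366573, plus strand), the kinase bound by cyclins E and A, had 5400 and 5150 scaled reads in shNT and 3317 and 2323 in shYEATS2. The shYEATS2 libraries differed more between themselves, but both were lower, and CDK2 fell by 46.6% (log2 fold change -0.90, SE 0.17, FDR = 0.00588). Without shNT replicate 1 the log2 fold change of CDK2 was -0.87 and missed the threshold (FDR = 0.0111). An antisense transcript that is not in the table covers 14.5% of the CDK2 exon bases.

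The inhibitors also diverged. CDKN1B (chr12:12838432-12875303, plus strand), which encodes p27, had 1428 and 1772 scaled reads in shNT and 2736 and 4000 in shYEATS2. Both shYEATS2 libraries were higher, replicate 2 the most, and CDKN1B rose by 110.6% (log2 fold change 1.07, SE 0.20, 95% interval 0.61 to 1.54, FDR = 0.0056). Of all genes tested, 94.9% had a lower log2 fold change than CDKN1B, and without shNT replicate 1 it was 0.92 with no call (FDR = 0.0138). CDKN2C (chr1:51426417-51440306, plus strand), which encodes p18, had 1841 and 2022 scaled reads in shNT and 974 and 1257 in shYEATS2. Both shYEATS2 libraries lay below both shNT libraries, and CDKN2C fell by 42.2% (log2 fold change -0.79, SE 0.14, FDR = 0.00521). The call was lost without shNT replicate 2 (log2 fold change -0.72, FDR = 0.0167). An antisense transcript that is not in the table covers 20.4% of the CDKN2C exon bases.

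**Figure D2:**
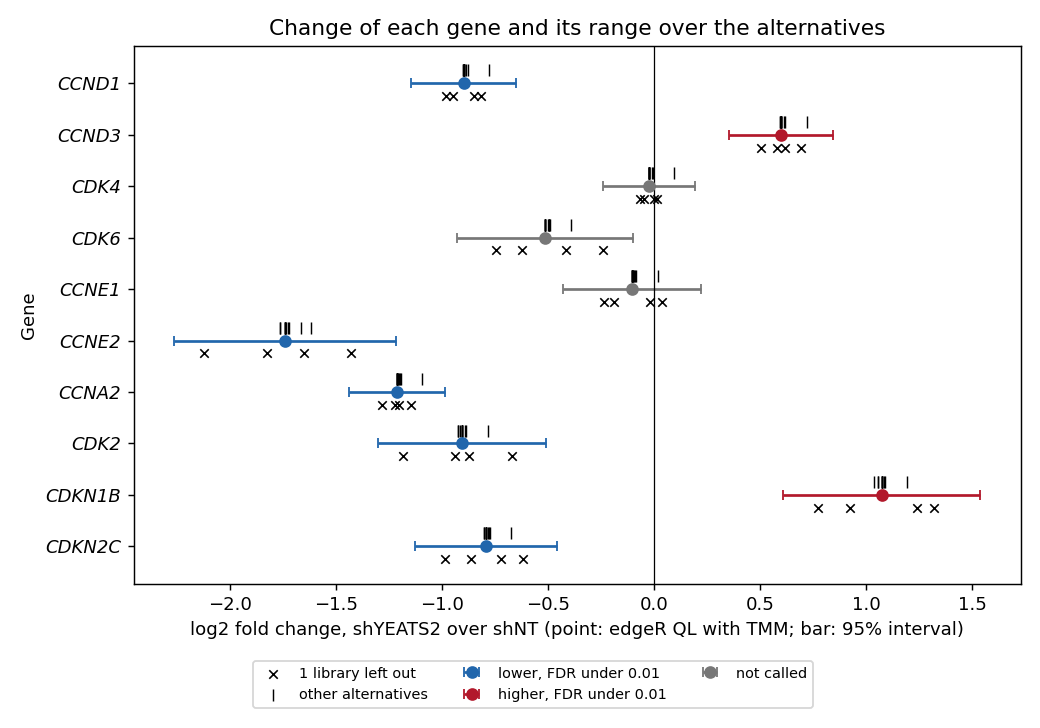
Log2 fold change (shYEATS2 over shNT) of each gene with its 95% interval derived from edgeR's quasi-likelihood test, coloured by call. Crosses show the 4 fits that leave out 1 library, and ticks show the other alternatives. Of the 7 called genes, none has a cross or tick on the other side of 0, whereas CDK4 and CCNE1 have values on both sides; the crosses of CDK6 run from -0.75 to -0.24.

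Ratios between genes of the same library do not depend on how libraries are scaled, and were taken from raw reads for 6 pairs. The ratio of CCND1 to CCND3 reads was 4.39 and 3.99 in shNT and 1.68 and 1.31 in shYEATS2, so that the geometric mean ratio in shYEATS2 was 0.355 of that in shNT. The ratio of CCNE2 to CCNE1 was 1.35 and 1.45 in shNT and 0.527 and 0.366 in shYEATS2, or 0.313 of the shNT ratio. The ratio of CDKN1B to CDK2 went the other way, from 0.264 and 0.344 in shNT to 0.825 and 1.72 in shYEATS2, or 3.95 times the shNT ratio. CDKN1B encodes an inhibitor of the kinase that CDK2 encodes, and the shYEATS2 libraries lay apart from each other in this ratio. The ratio of CDKN2C to CDK4 was 0.27 and 0.315 in shNT and 0.147 and 0.196 in shYEATS2. The ratio of CDK6 to CDK4 was 1.64 and 1.22 in shNT and 1.08 and 0.965 in shYEATS2, again without overlap. The ratio of CCNA2 to CDK2 was 1.27 and 1.46 in shNT and 0.943 and 1.33 in shYEATS2, which overlapped. With 2 libraries against 2, the smallest two-sided p of an exact permutation test is 0.333, so that no ratio could pass a threshold of 0.05 in that test, and the ratios are given as values without a test.

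**Figure D3:**
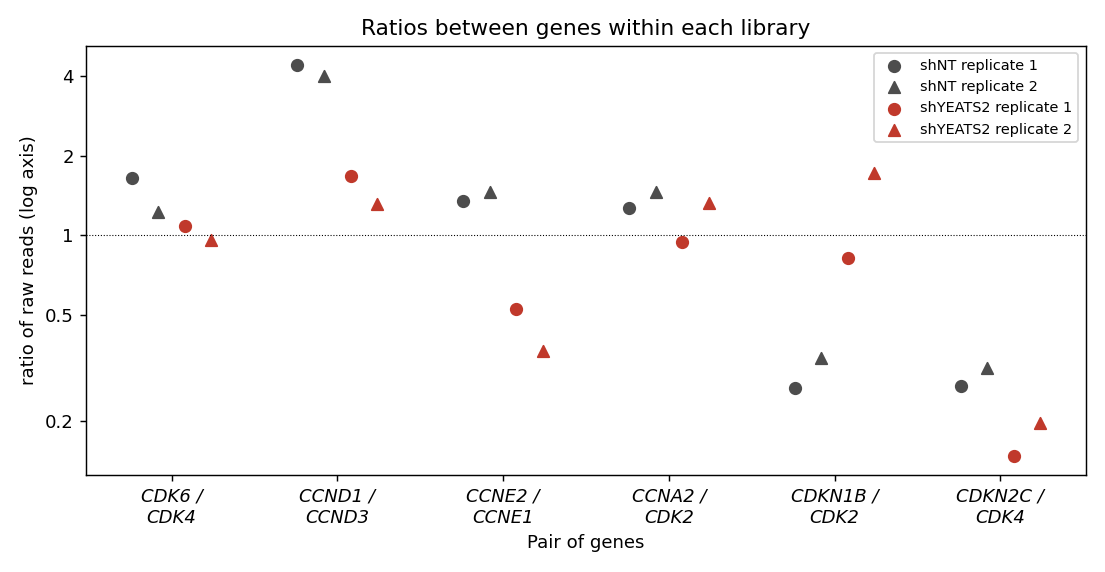
Ratio of raw reads between the genes of 6 pairs in each library (log axis, dotted line at a ratio of 1), with shNT libraries in grey and shYEATS2 libraries in red. Raw reads also depend on gene length, so the side of the line does not tell which gene had the higher level. The red points lie below the grey points for CDK6 to CDK4, CCND1 to CCND3, CCNE2 to CCNE1 and CDKN2C to CDK4, lie above them for CDKN1B to CDK2, and overlap with them for CCNA2 to CDK2.

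The ratios of raw reads above also reflect gene length, and serve only to compare libraries. Levels of different genes were compared only per length, as RPKM. RPKM divides the reads of a gene by the kilobases of its merged exons and by the TMM-scaled depth of the library. In shNT cells the mean RPKM fell in the order CCND1 (88.5), CCNA2 (72.0), CDK4 (58.8), CDK2 (37.3), CDK6 (21.4), CDKN2C (17.6), CCND3 (17.5), CCNE1 (8.97), CCNE2 (7.02) and CDKN1B (4.75). CDK6, CDKN2C and CCND3 overlapped between libraries and their order among themselves is not set. In shYEATS2 cells the order of mean RPKM was CDK4 (57.8), CCND1 (47.5), CCNA2 (31.1), CCND3 (26.5), CDK2 (19.9), CDK6 (15.0), CDKN2C (10.2), CDKN1B (9.99), CCNE1 (8.35) and CCNE2 (2.11). Here CDKN1B overlapped with both of its neighbours, CDKN2C and CCNE1. On this length CDKN1B had the lowest level of the 10 genes in both shNT libraries, and CCNE2 the lowest in both shYEATS2 libraries.

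The gene length used decides some of these orders. Merged exons of all annotated transcripts are long for CDKN1B and CCND3, and with the length of the Ensembl canonical transcript, an alternative added after the data were seen, CDKN1B had a mean RPKM of 18.2 in shNT and 38.3 in shYEATS2. It then lay above CCNE1 (11.3) and CCNE2 (11.6) in both shNT libraries and was no longer the lowest. On that length the mean RPKM of CCND1 went from 99.4 in shNT to 53.4 in shYEATS2, and that of CCND3 from 49.6 to 75.3, so that CCND3 lay above CCND1 in both shYEATS2 libraries. The share of CCND3 in the summed RPKM of CCND1 and CCND3 was 32.3% and 34.4% in shNT and 55.5% and 61.5% in shYEATS2 on the canonical length. On merged exons the same share was 15.8% and 17.1% in shNT and 33.0% and 38.6% in shYEATS2. The share of CCND3 was therefore higher in both shYEATS2 libraries on either length, while which of the D-type cyclins had the higher level in shYEATS2 cells depended on the length. CCNE2 was the lowest of the 10 genes in both shYEATS2 libraries on either length.

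Among the other cyclins and inhibitors of the G1 to S transition, 6 of 8 were in the table, of which 1 was lower, 3 were higher and 2 were not called, with a median log2 fold change of 0.43. Among all genes tested, 12.5% were lower and 12.9% higher. CCND2, which encodes the remaining D-type cyclin, had 60.2 and 124 scaled reads in shNT and 298 and 433 in shYEATS2 (log2 fold change 1.99, SE 0.34, FDR = 0.00465). CCNA1, a cyclin A gene best known from the germ line, had 253 and 337 scaled reads in shNT and 104 and 62.8 in shYEATS2 (log2 fold change -1.83, SE 0.28, FDR = 0.00332). The D-type cyclins thus comprised CCND2 and CCND3, which rose, and CCND1, which fell. CDKN2B, which encodes the INK4 inhibitor p15, had 1045 and 1381 scaled reads in shNT and 2268 and 3155 in shYEATS2 (log2 fold change 1.16, FDR = 0.00422). CDKN2A, whose transcripts encode p16 and ARF and were counted together here, had 3040 and 3011 scaled reads in shNT and 4676 and 4563 in shYEATS2 (log2 fold change 0.61, FDR = 0.00284). Of the INK4 genes, CDKN2A and CDKN2B therefore rose and CDKN2C fell, while CDKN2D, which encodes p19, was not called (log2 fold change -0.37, FDR = 0.184). CDKN1A, which encodes the CIP/KIP inhibitor p21 and is a target of p53, had 2086 and 1558 scaled reads in shNT and 1894 and 2433 in shYEATS2, which overlapped (log2 fold change 0.25, FDR = 0.271). CDKN1A and CDKN2D are named after their values were seen. Not all 3 genes called higher kept that call without shNT replicate 1, shNT replicate 2 or shYEATS2 replicate 2.

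The genes that modify or degrade G1/S cyclins, kinases and inhibitors gave 3 lower, 3 higher and 12 not called of 18, or 16.7% in each direction, near the 12.5% lower and 12.9% higher among all genes tested. Their median log2 fold change was near 0 (-9.03e-05). The lowest was PKMYT1, a kinase that places inhibitory phosphates on CDK1, with 1857 and 1849 scaled reads in shNT and 853 and 487 in shYEATS2 (log2 fold change -1.47, FDR = 0.00387). The highest was FBXW7, the ubiquitin ligase subunit that targets cyclin E for degradation, with 428 and 419 scaled reads in shNT and 775 and 917 in shYEATS2 (log2 fold change 1.00, FDR = 0.00201). The other genes called, named after their values were seen, were CKS1B and CUL1, which serve the SCF ligase that degrades p27 and were lower (log2 fold changes -0.996 and -0.91), and AMBRA1 and RNF123, ubiquitin ligase genes that act on D-type cyclins and on p27 and were higher (0.70 and 0.50). SKP2, which recognises p27 for the SCF ligase, was not called (log2 fold change 0.06, FDR = 0.654) and is likewise named after its values were seen. With either shNT library left out, fewer genes of the list were called higher, and fewer of all genes were as well.

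Among 19 genes of the RB, E2F and MuvB proteins, 5 were lower, 1 was higher and 13 were not called, with a median of -0.25. The shares were 26.3% lower and 5.26% higher, beside 12.5% and 12.9% of all genes tested. Both exactTest and DESeq2 called 7 lower and 2 higher. Of all 12676 genes, exactTest called 2497 lower and 2596 higher, and DESeq2 called 2190 lower and 2159 higher. E2F8, a repressor E2F, was the lowest, with 1309 and 1044 scaled reads in shNT and 364 and 246 in shYEATS2 (log2 fold change -1.95, FDR = 0.0013). E2F6, another repressor, was the highest and the only one called higher (log2 fold change 0.58, FDR = 0.0081). RB1 itself was not called (log2 fold change -0.24, FDR = 0.0726), nor was E2F1 (log2 fold change -0.62, FDR = 0.0536), and both are named here after their values were seen. The number called higher changed with each library left out, as did that of all genes.

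Genes of DNA replication and of mitosis were mostly lower. Both lists were chosen with earlier results of these data known. The paper had reported DNA replication and cell cycle among the pathways of its downregulated genes, so the shares below describe the lists and are no test. Of 27 E2F target genes of origin licensing and S phase, 24 were called lower and none higher, or 88.9% lower beside 12.5% of all genes tested, with a median log2 fold change of -1.25. Both shYEATS2 libraries lay below both shNT libraries in all 27, beside 5049 of all 12676 genes tested. Groups without overlap in either direction made up 79.6% of all genes. They ranged from MCM10, a replication initiation factor, at -1.83 (2861 and 2419 scaled reads in shNT, 995 and 490 in shYEATS2, FDR = 0.00391) to SLBP, which binds histone mRNA, at -0.61 (FDR = 0.00481). FEN1, which processes Okazaki fragments, was next to MCM10 at -1.75 (FDR = 0.00227). At an unadjusted p below 0.05 in edgeR, 27 of these genes were lower and 0 higher, beside 3528 and 3636 of all 12676 genes. DESeq2 called 26 lower and 0 higher, beside 2190 and 2159 of all genes. With 1 library left out, the number of these genes called lower changed, as did that of all genes. Of 12 cyclins, kinases and activators of G2 and mitosis, 11 were called lower and none higher, or 91.7% lower, with a median of -1.15. At an unadjusted p below 0.05 in edgeR 11 were lower and 0 higher, and DESeq2 called 11 lower and 0 higher. The counts over all genes at these 2 settings are those given above. CDC20, an activator of the anaphase-promoting complex, was the lowest at -1.62 (FDR = 0.000793), followed by the checkpoint kinase gene BUB1 at -1.47 (FDR = 0.000793), and CDC25B was the highest at -0.20 with no call (FDR = 0.137). CCNE2 and CCNA2, with log2 fold changes of -1.74 and -1.21, lay within the range of the replication genes, as did CDK2, CCND1 and CDKN2C, whereas CDK6, CCNE1, CDK4, CCND3 and CDKN1B lay above all 27 of them.

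Cyclins and kinases of transcription, which share the protein families but act on RNA polymerase II, gave 2 lower, 1 higher and 10 not called of 13, with a median of 0.05. These shares, 15.4% lower and 7.69% higher, lie near those of all genes tested (12.5% and 12.9%), and with scaling by total counts 0 were called lower. CDK11A had the lowest log2 fold change (-0.68, FDR = 0.00879). That value is uncertain because its reads may be hard to tell from those of its near-identical copy CDK11B. How far the reads of the 2 genes were mixed was not measured here. CDK11B was not called (-0.38, FDR = 0.0298). CCNT2, a cyclin of the elongation factor P-TEFb, had the highest (0.47, FDR = 0.00689). CDK12, named after its values were seen, was the other one called lower (-0.51, FDR = 0.00793). With either shNT library or shYEATS2 replicate 2 left out, these calls were lost, and fewer of all genes were called.

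**Figure D4:**
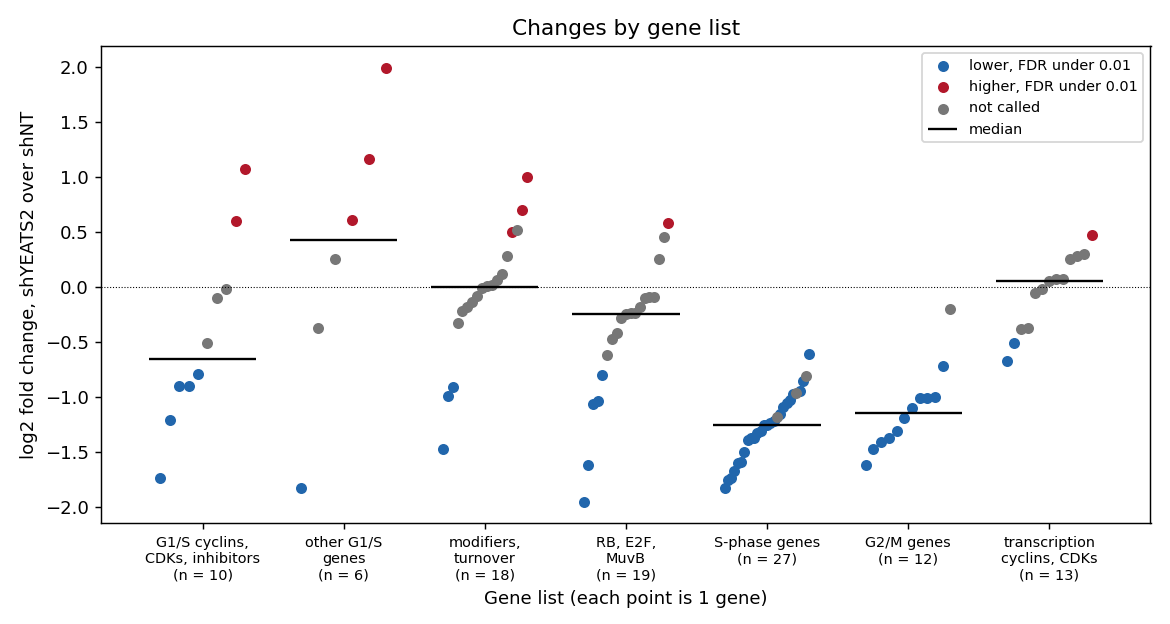
Log2 fold change (shYEATS2 over shNT) of every gene in 7 lists, 1 point per gene, ordered by value within each list, coloured by call (FDR below 0.01), with bars at the list medians. The 10 G1/S genes spread from -1.74 to 1.07 with a median of -0.65, while all 27 replication and S-phase genes and all 12 genes of G2 and mitosis lie below 0.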

How the data were processed

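RNA-seq of 2 shNT and 2 shYEATS2 libraries was used, and ChIP-seq samples were not used here. The authors deposited raw counts, which HTSeq (0.6.1p1, default settings) gave for each gene on hg19. The submitters' processing notes list TopHat2 (2.0.10), whereas the study's methods name the RNA-Seq unified mapper. The annotation is not given in the sources used here. The mRNA kit does not mark strand, so reads of a gene and of an overlapping gene on the other strand cannot be told apart. Every gene in the table has over 100 reads in at least 1 library, so lower genes were not analysed here. Its columns of log2 fold changes, p-values and FDR values, which hold the authors' own comparison, were not used.

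Libraries were assigned by their titles. The genes, lists and promoter words were chosen with earlier results of these data known. Counts were tested with edgeR (4.0.16, R 4.3.3), by the quasi-likelihood test with TMM scaling, over all 12676 genes. A minimum of 10 reads in 2 or more libraries removed none. Benjamini-Hochberg adjustment ran over all genes, with an FDR below 0.01. Each SE was derived from the log2 fold change and the F statistic of the quasi-likelihood test, and the 95% interval from that SE. The test was run on simulated counts with known changes, where all genes shared the same dispersion and libraries were independent. Those counts were simpler than these data, so that run does not give the error rates here. Alternatives were other scalings (DESeq2 size factors, total counts, upper quartile), exactTest, DESeq2 (1.42.0), limma-trend (limma 3.58.1, pseudocounts 1 and 0.1), other filters, a replicate block, an FDR below 0.05 and leaving out each library. Genes named are all 10 G1/S genes, YEATS2, the lowest and highest of each list, every called gene among the other G1/S genes and the 2 largest changes among S-phase and among G2 and mitosis genes. Genes outside that rule are named as such or beside their neighbours. Libraries held 34718921 to 39417787 counted reads, and the median SE of a log2 fold change was 0.12. Positions and exon lengths come from GENCODE v44 lifted to GRCh37.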

Additional observations from a re-analysis of the deposited data

How the results depend on the processing

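The 7 called G1/S genes kept their direction under all 15 alternatives, and kept their call under the 11 that used all libraries. CDK6 gained a call with DESeq2 (FDR = 0.00819), with the threshold of 0.05, with the replicate block and without shNT replicate 2. With 1 library left out, where the lone library is assumed to vary like the other group, 4 to 5 G1/S genes were called lower and 0 to 2 higher: CCND3, CDK2 and CDKN1B lost their calls without shNT replicate 1, and CCND3 and CDKN2C without shNT replicate 2. The log2 fold changes of CCNE1 and CDK4 turned sign with total counts (0.0172 and 0.096). They also turned when shNT replicate 1 was left out, and over the libraries left out they ran from -0.236 to 0.0401 for CCNE1 and from -0.0648 to 0.015 for CDK4. Total counts moved the median of all genes from -0.0019 to 0.12, and called 1166 genes lower and 2363 higher instead of 1581 and 1630, with 5 and 2 of the G1/S genes. Over all genes, exactTest called 2497 lower and 2596 higher, a threshold of 0.05 called 3011 and 3093, and leaving out 1 library called 850 to 2024 lower and 775 to 1971 higher. The cause of these differences was not tested.

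The replicate numbers are shared between groups, but no label ties them to a batch, and same-numbered libraries deviated together with a correlation of 0.399 over genes from only 2 pairs. With the number as a block, 2715 genes were called lower and 2742 higher, and 6 and 2 of the G1/S genes, with CDK6 added at a log2 fold change of -0.50 (FDR = 0.00291). No other call among the 10 G1/S genes changed under the block. Of the RB, E2F and MuvB genes the block called 8 lower and 2 higher, and it called 2 of the 3 lineage markers lower.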
